A study of Homo sapiens with 76 samples.

Results

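Single cells of HEK293, an established line derived from human embryonic kidney, were ranked here by how much of their mRNA came from genes of mitosis, and the cells at both ends of that ranking were compared. The ranking used 15 genes: CDK1, CCNB1, CCNB2, CCNA2, CDC20, CKS2, UBE2C, KPNA2, TPX2, TOP2A, CENPF, AURKA, PLK1, BIRC5 and NUSAP1. For each of 76 cells their summed unique molecular identifiers (UMIs, random tags that let copies of 1 captured RNA be counted once) were divided by the UMIs of all genes. The 19 cells with the highest share are called the high cells, the 19 with the lowest share the low cells, and the 38 between them enter only where the ranking is cut into 4 rank bins of 19 cells, from highest to lowest. All were untreated cells of 1 line and 1 run of a microfluidic chip, grown in DMEM with serum, and each was lysed with 20000 molecules of synthetic spike-in RNA. The labels name no separate cultures, so the cells are 1 sample: no test between high and low cells was possible, no p-value is given, and every SD is the spread over cells. Because the cells were chosen by these 15 genes, the levels of those genes are a description and support nothing.

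Passage through mitosis is driven by cyclin-dependent kinase 1 bound to cyclin B, and it ends when the anaphase-promoting complex, a ubiquitin ligase, marks cyclin B and securin for destruction. The mRNAs of these proteins and of many spindle and centromere proteins accumulate as cells move from S phase into G2 and fall again after division. Many of their promoters carry a cell cycle genes homology region, most often written TTTGAA or TTTAAA, downstream of CCAAT boxes. In an unsynchronized culture the level of such mRNAs therefore differs from cell to cell.

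The ranking share was 0.438% ± 0.156 of gene UMIs in the high cells (SD, n = 19; lowest 0.292%, median 0.426%, highest 0.897%). In the low cells it was 0.128% ± 0.0236 (SD, n = 19; 0.0821%, 0.132% and 0.165%). The ranking had no gap at either edge: the last high cell had 0.292% and the next cell 0.282%, while the first low cell had 0.165% and the cell above it 0.167%. The median of all 76 cells was 0.233%. Of the 15 genes, 13.1 had a UMI in the average high cell (range 10 to 15) and 8.84 in the average low cell (range 4 to 12).

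**Figure D1:**
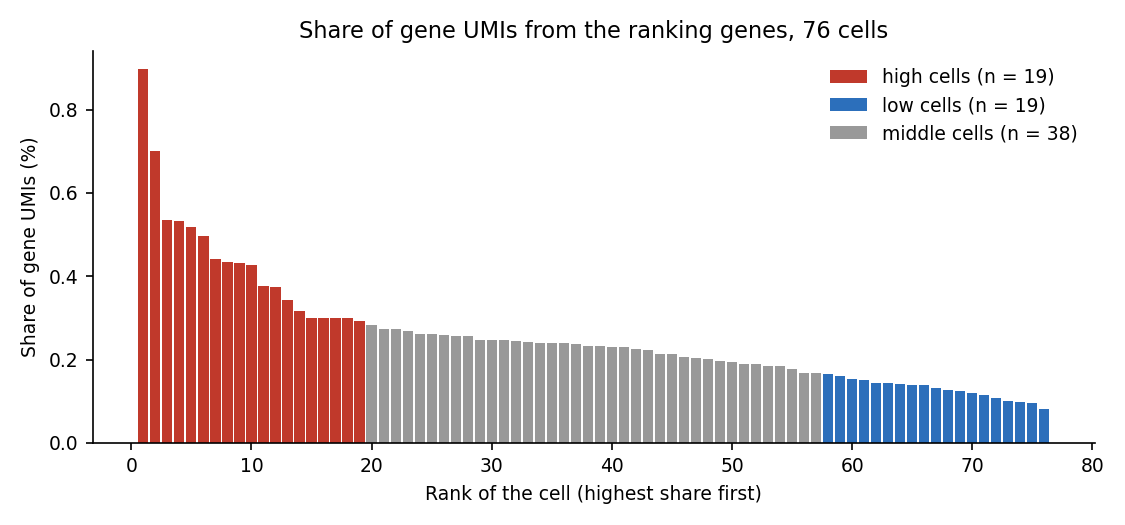
Share of a cell's gene UMIs from the 15 ranking genes (y axis, percent) for the 76 cells in rank order (x axis); red bars are the 19 high cells, grey bars the 38 between and blue bars the 19 low cells. The bars fall without a step at the edges of the groups, from 0.292% to 0.282% at the upper edge and from 0.167% to 0.165% at the lower edge.

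Depth differed between the groups and stands beside every result below. High cells had 26425 ± 9817 gene UMIs and low cells 20297 ± 10540 (SD, n = 19 each), a ratio of 1.30, with ranges of 13360 to 43392 and 7305 to 41539. Scaled by the spike-in UMIs (2357 and 2136 per cell), this corresponds to about 223196 and 186829 RNA molecules per cell, a ratio of 1.19. High cells held 4431 detected genes against 3702, but thinned to 10940 UMIs they held 2933 (n = 19) against 2864 (n = 15), a ratio of 1.02. The total was under 10483 UMIs, the median of all cells divided by 2, in 4 low cells and 0 high cells. No doublets were called, so a chamber with more than 1 cell cannot be told apart from a cell with more RNA. The part of depth in the differences was not tested. Of tissue markers listed to check the line, the neuronal UCHL1 was seen in 18 high and 15 low cells and NEFM in 14 of each, while blood and immune markers summed to 6 UMIs in the high and 2 in the low cells. Kidney epithelial markers summed to 38 and 66 UMIs, most of them KRT18, and EPCAM was at 0 in both groups.

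The promoters of the ranking genes are shown because the genes were grouped by their place in the cell cycle and the promoter letters are independent of the UMI counts. RefSeq promoters (GRCh38.p14, while the counts were made on GRCh37) were matched by symbol for 11 of the 15 genes. UBE2C, TPX2, AURKA and BIRC5 had no entry. The lines give the 100 bases just before the gene's start, 5′ to 3′ on the strand of the gene, for the 3 marker genes CDK1, CCNB1 and KPNA2 and for the 6 most abundant others with a match. Capitals mark the motif TTTGAA, its variant TTTAAA, which reads the same on both strands, and the CCAAT box, on either strand, so that TTCAAA is the reverse form of the motif and ATTGG that of the box. For CDK1, with 2 starts in the table, the downstream one is shown.
CDK1 (chr10:60778378-60778477, + strand): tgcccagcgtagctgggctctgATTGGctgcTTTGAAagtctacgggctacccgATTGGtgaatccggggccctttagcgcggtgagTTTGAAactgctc
CCNB1 (chr5:69167050-69167149, + strand): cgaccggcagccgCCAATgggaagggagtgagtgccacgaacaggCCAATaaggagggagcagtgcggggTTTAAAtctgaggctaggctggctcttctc
KPNA2 (chr17:68035635-68035734, + strand): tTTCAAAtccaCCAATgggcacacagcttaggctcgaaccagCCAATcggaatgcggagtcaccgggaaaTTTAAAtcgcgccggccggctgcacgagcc
CKS2 (chr9:89311095-89311194, + strand): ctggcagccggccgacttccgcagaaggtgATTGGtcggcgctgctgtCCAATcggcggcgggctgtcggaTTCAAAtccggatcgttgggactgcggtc
TOP2A (chr17:40417897-40417996, - strand): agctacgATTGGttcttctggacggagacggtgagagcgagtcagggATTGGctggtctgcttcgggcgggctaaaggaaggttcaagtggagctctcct
NUSAP1 (chr15:41332781-41332880, + strand): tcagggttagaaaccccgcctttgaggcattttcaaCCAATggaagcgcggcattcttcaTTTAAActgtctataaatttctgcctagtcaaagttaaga
CCNB2 (chr15:59105046-59105145, + strand): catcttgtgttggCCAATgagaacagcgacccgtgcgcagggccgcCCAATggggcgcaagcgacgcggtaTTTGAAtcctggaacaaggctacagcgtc
CDC20 (chr1:43358881-43358980, + strand): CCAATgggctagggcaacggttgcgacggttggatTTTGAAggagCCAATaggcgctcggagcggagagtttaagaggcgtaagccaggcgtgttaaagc
PLK1 (chr16:23678789-23678888, + strand): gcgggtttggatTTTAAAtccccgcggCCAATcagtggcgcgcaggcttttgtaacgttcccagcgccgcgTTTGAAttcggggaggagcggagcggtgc

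Within 60 bases before the start, TTTGAA or TTTAAA occurred in 7 of the 11 matched ranking genes: CDK1, CCNB1, KPNA2, CKS2, NUSAP1, CCNB2 and PLK1. The same letters stood in that window in 6.37% of the 27305 genes of the promoter table, in 24 of 83 matched genes of the mitotic lists outside the ranking (28.9%) and in 3 of 43 S phase genes (6.98%). In CCNB1 and KPNA2 alike TTTAAA ended 25 bases before the start, and in CCNB2, CKS2 and PLK1 a TTTGAA form ended 24 bases before it. CCAAT on either strand occurred within 250 bases in all 11 matched ranking genes, against 37% of all genes in the table, 66.3% of the mitotic lists outside the ranking and 65.1% of the S phase genes. The 60-base window was chosen after the sequences were seen. A match is a run of letters and not a bound site.

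The cyclins and their kinase were described first. CDK1, the kinase that drives entry into mitosis, stood at 5.47 ± 2.81 UMIs per 10000 gene UMIs in the high cells (SD, n = 19; 0.40, 5.60 and 11.2 as lowest, median and highest) and 1.76 ± 1.34 in the low cells (0, 1.54 and 4.32). All levels below are in this unit, and a ratio is the mean level of the high cells over that of the low cells. CCNB1, cyclin B1, had 2.95 ± 2.58 against 0.62 ± 0.71, a ratio of 4.78, from 141 and 20 UMIs. CCNB2, the second B-type cyclin, had a ratio of 3.37 and CKS2, a small subunit that binds the kinase, 4.24. CKS2 came closest to separating the groups, with 18 of 19 high cells above every low cell (lowest high cell 3.78, highest low cell 3.94). CCNA2, cyclin A2, went the other way: its 22 UMIs in the high cells and 26 in the low cells gave levels of 0.47 ± 0.62 and 0.68 ± 0.71 and a ratio of 0.69. It was the only ranking gene with a ratio below 1, though with the ranking genes weighted equally it came to 1.03.

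KPNA2, an importin alpha that carries cargo into the nucleus and binds spindle factors, had 5.38 ± 3.08 in the high and 1.80 ± 1.44 in the low cells, a ratio of 2.98. Among regulators of the end of mitosis, UBE2C, the ubiquitin-conjugating enzyme of the anaphase-promoting complex, had 5.83 ± 3.82 against 1.25 ± 0.83. CDC20, an activator of that complex, had 1.06 ± 0.78 against 0.37 ± 0.48. The groups overlapped for these 3 genes, and CDC20 was without a UMI in 3 high cells and 11 low cells. Its mean was higher in the second bin of the ranking (1.29) than in the first.

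The kinase genes PLK1 and AURKA gave the steepest ratios of the 15 genes, on few UMIs. PLK1, polo-like kinase 1, had 67 UMIs in the high and 5 in the low cells, and AURKA, the kinase of the spindle poles, had 47 and 2. The ratio of pooled AURKA shares was 18.1 with a 95% interval of 4.73 to 153, and that of PLK1 10.3 with 4.20 to 32.7. Intervals on UMIs here cover counting error only. AURKA had no UMI in 4 of the high cells and 17 of the low cells, so neither gene marks each cell by itself.

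Of the chromosome and spindle genes, TOP2A, the topoisomerase that untangles sister chromatids, had 3.98 ± 2.25 against 0.95 ± 0.86, and NUSAP1, a microtubule binder, 3.44 ± 3.32 against 1.04 ± 1.06. BIRC5 (survivin), of the chromosomal passenger complex, was flatter with a ratio of 1.98. CENPF, an outer kinetochore protein, had 0.55 ± 0.62 and 0.40 ± 0.69, a ratio of 1.39 and a difference smaller than the SD over cells. TPX2, which activates AURKA on the spindle, had a ratio of 4.12, but when cells were ranked by CDK1, CCNB1 and KPNA2 alone it was 0.817.

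**Figure D2:**
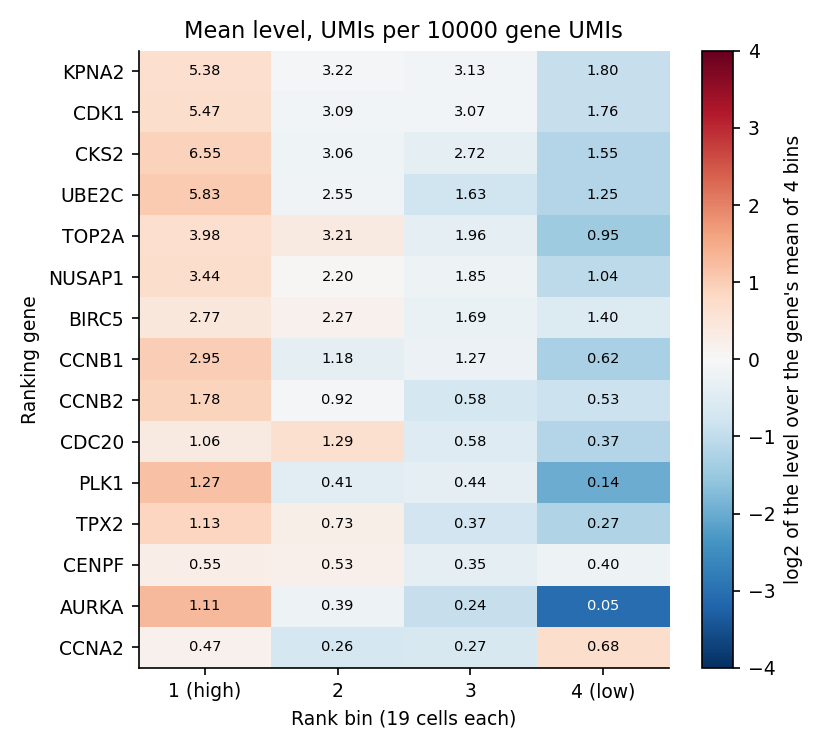
Mean level (number in each field, UMIs per 10000 gene UMIs) of the 15 ranking genes in the 4 rank bins, 19 cells each; the colour is the log2 of that level over the gene's mean of the 4 bins. CCNA2 has its highest mean, 0.68, in the lowest bin, and AURKA falls to 0.05 there.

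To see how much each gene owed to its own part in the ranking, the cells were ranked again by the other 14 genes. CDK1 then had a ratio of 2.32, CCNB1 3.70, KPNA2 2.69, UBE2C 4.48 and TOP2A 3.84. NUSAP1 moved most in proportion, from 3.31 to 2.09. CENPF stayed at 1.39, and CCNA2 moved further down, to 0.52. Across the 76 cells the levels of the genes were only loosely linked: over 105 pairs the median Spearman rho was 0.169, from -0.196 to 0.533, and 86 pairs were above 0. These are descriptions over cells that share 1 run and the same total as denominator.

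The comparison across all other genes took the 1600 genes outside the ranking with a mean of at least 2 UMIs per cell, and counted a gene as higher or lower where the ratio of mean levels was at least 1.5 in that direction. By this rule 143 genes (8.94%) were higher and 132 (8.25%) lower in the high cells, and the median log2 ratio over the 1600 genes was -0.03. Beyond a ratio of 2 there were 35 genes higher and 17 lower. For 0 of the 1600 genes were the groups free of overlap. Among genes with at least 5 UMIs per cell the shares were 4.37% higher and 4.68% lower, so most calls came from genes of few UMIs. Scaled by spike-in UMIs in place of gene totals the split was 282 higher and 36 lower. That scale moves the median gene to a log2 ratio of 0.22, and relative to the median gene the split was 125 and 87. Ratios a little below 1 given here turn on that scale, as that of H2AFZ, a histone variant, from 0.88 to 1.04. Over the 4 rank bins, the mean level fell at each step in 40 of the 143 higher genes and climbed at each step in 35 of the 132 lower genes. These genes were picked by their end bins, and over all 1600 genes 81 fell and 101 climbed at each step.

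**Figure D3:**
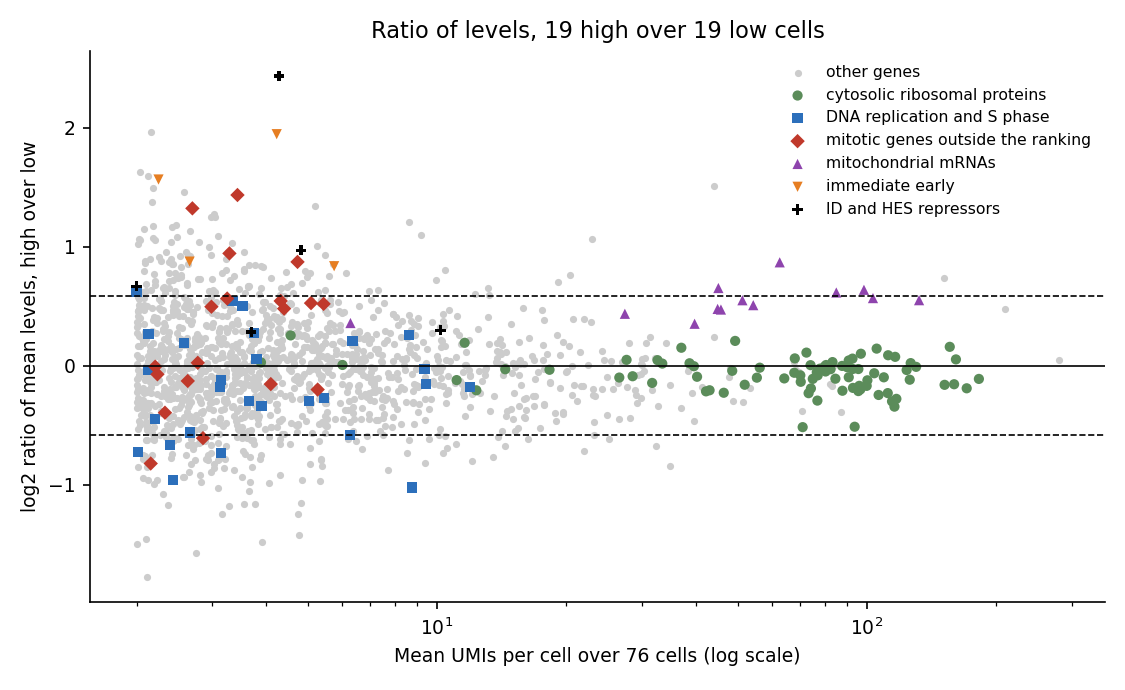
The log2 ratio of mean levels, high over low cells (y axis), against mean UMIs per cell (x axis, log scale) for the 1600 genes considered, with 6 groups of genes marked. Dashed lines mark a ratio of 1.5 in either direction. All 83 ribosomal protein genes lie between the lines, and HES1 is the highest point.

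The mitotic genes that the ranking did not use were grouped into lists of kinase and checkpoint regulators, spindle and cytokinesis, kinetochore and passenger complex, and condensin and cohesin. Together they held 99 genes of the table. Their summed level was 58.8 ± 12.9 in the high cells (lowest 40.9, median 59.7, highest 80.8) and 43.7 ± 8.63 in the low cells (31.6, 43.1 and 63), a ratio of 1.35. In 17 of 19 high cells the sum was above the median of the low cells, and it fell over the rank bins from 58.8 to 54, 49.2 and 43.7. The ratio lay between 1.21 and 1.58 under 8 other scalings and rankings. Only 19 of the 99 genes reached 2 UMIs per cell, of which 4 were higher (BUB3, KIF2C, PRC1 and AURKB) and 2 lower (CDC25A and SMC3), with a median log2 ratio of 0.48 against -0.03 for all genes. Higher calls were thus 4 of 19 where 8.94% of all genes had one, and lower calls 2 of 19 where 8.25% had one.

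Spindle and cytokinesis genes differed most. Their sum was 14.7 ± 5.20 against 7.77 ± 2.28, a ratio of 1.89, and 13 of 19 high cells lay above every low cell. PRC1, which bundles the microtubules of the central spindle, stood at 1.49 ± 0.87 in the high cells (0, 1.64 and 3.00) and 0.55 ± 0.76 in the low cells (0, 0.36 and 3.00). The ratio of 2.70 came from 83 and 23 UMIs, and 1 low cell was as high as any high cell. PRC1 did not follow the ranking step by step, since its means in the middle bins were 1.91 and 1.96. KIF2C, a kinesin that takes microtubules apart at centromeres, had a ratio of 1.92 (121 and 40 UMIs) and held at least 1.5 under all 14 alternatives. CKAP2, a spindle protein, had 1.48, and KIF22, a chromosome-bound kinesin, 0.95.

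Checkpoint and anaphase regulators had a summed ratio of 1.32. BUB3, of the spindle assembly checkpoint, stood at 2.54 ± 1.14 in the high and 1.39 ± 1.21 in the low cells, a ratio of 1.83 that dropped to 1.2 in thinned cells. MAD2L1, which holds back CDC20, had 2.71 ± 1.48 against 1.88 ± 0.90, and PTTG1, the securin that guards cohesin, 2.73 ± 1.40 against 1.90 ± 1.69. Both ratios, 1.44 and 1.43, were below the threshold. CDC25A, the phosphatase that activates cyclin-dependent kinases at the start of S phase, was lower at 0.84 ± 1.11 against 1.49 ± 1.28. It passed the filter of 2 UMIs per cell only with the low cells in its mean.

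At the centromere, AURKB, the kinase of the chromosomal passenger complex, had 1.60 ± 1.11 in the high cells (0, 1.39 and 3.66) and 0.64 ± 0.91 in the low cells (0, 0.36 and 3.46), from 82 and 30 UMIs. Its ratio of 2.50 held at least 1.5 under all 14 alternatives, and its mean fell at each bin, from 1.60 to 1.09, 0.99 and 0.64. CDCA8 (borealin), of the same complex, had 37 UMIs against 12, too few for the count of genes above. Proteins of the constitutive centromere varied. CENPN had a ratio of 1.02, CENPU 0.92 and CENPW 0.87, while CENPK had 2.46 (38 and 12 UMIs), CENPM 1.51 (41 and 28 UMIs) and CENPH 0.71 (38 and 31 UMIs), the last 3 on too few UMIs to be counted. As a list the kinetochore genes had a ratio of 1.15.

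Condensin and cohesin genes had a ratio of 1.23. SMC4, an ATPase of condensin, was at 2.42 ± 1.83 against 1.66 ± 1.01, while SMC2, also of condensin, had a ratio of 0.68 from 33 and 29 UMIs. SMC3, of the cohesin ring, was lower at 0.84 ± 0.97 against 1.28 ± 0.81, while SMC1A, of the same ring, had a ratio of 1.40 from 108 and 66 UMIs. MKI67, which coats mitotic chromosomes, had only 28 and 18 UMIs. The subunits of the anaphase-promoting complex itself showed 0 of 5 genes past the threshold in either direction and a ratio of 1.02. Of all genes 8.94% were higher and 8.25% lower, so 5 genes are few for such a count.

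Among transcription factors of G2 and M phase the sums differed by less than the SD over cells, at 7.09 ± 2.46 against 7.30 ± 2.18. The ratio was 0.97, and 1.22 on the spike-in scale. MYBL2 (B-Myb), which activates mitotic genes with the MuvB complex, was lower in the high cells: 1.32 ± 0.86 (0, 1.46 and 2.84) against 3.11 ± 1.97 (0, 2.41 and 8.23), from 70 and 113 UMIs. Only 2 high cells lay above the low median, and the ratio was 0.42. Ranked by the 3 markers alone it was 0.81.

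**Figure D4:**
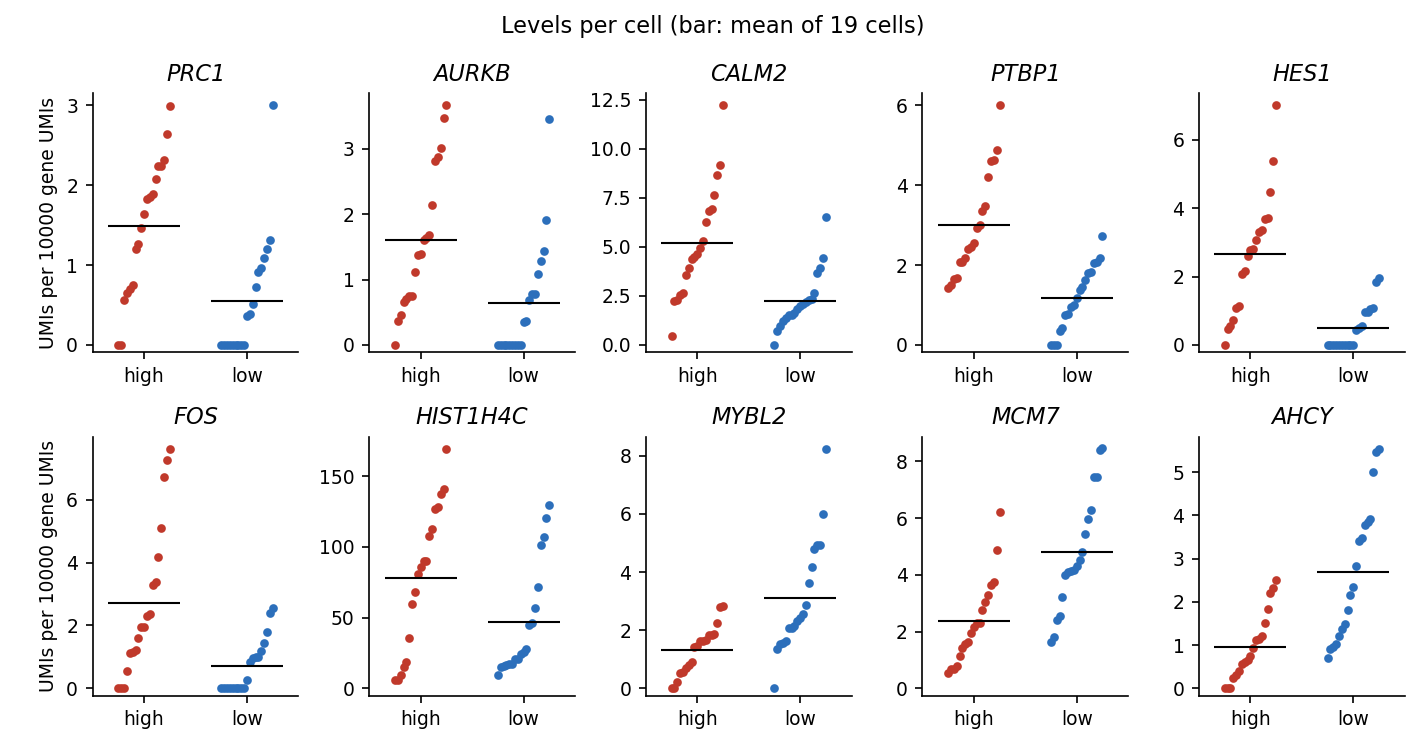
Level in each of the 19 high cells (red) and 19 low cells (blue), in UMIs per 10000 gene UMIs, for 10 genes; the bar is the mean and cells are sorted by level within a group. High and low cells overlap for each gene, and PTBP1 is the one gene of these with every high cell above the low median.

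Genes of DNA replication leaned the other way. Over 52 genes of licensing and S phase the sum was 57.4 ± 17.6 in the high cells and 66.2 ± 17.3 in the low cells, a ratio of 0.87 that stayed below 1 under 8 other scalings and rankings (0.83 to 0.99). The difference was smaller than the SD over cells, and the sum was highest in the third bin (72.9). Of 27 genes considered, 5 were lower (MCM3, MCM7, RFC2, TK1 and UNG) and 1 was higher (RFC5), beside 8.25% lower and 8.94% higher among all genes. Their median log2 ratio was -0.18. MCM7, a subunit of the replicative helicase, stood at 2.36 ± 1.52 (0.56, 2.18 and 6.22) against 4.80 ± 2.09 (1.64, 4.32 and 8.46), from 124 and 201 UMIs. Its ratio was 0.49, and its mean climbed at each bin, from 2.36 to 3.97, 4.20 and 4.80. UNG, a uracil DNA glycosylase, had a ratio of 0.51 and TK1, thymidine kinase, 0.60. RPA3 of the single-strand binding complex was level at 0.98, and GMNN, the licensing inhibitor geminin, had 0.90.

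Of 38 replication-dependent histones only 1 was abundant enough to be counted, and it supplied 3565 of the list's 3747 UMIs in the high cells. This gene, HIST1H4C, which encodes histone H4, had 78.3 ± 51.5 in the high cells (5.76, 85.7 and 169) and 46.8 ± 39.6 in the low cells (9.40, 25.6 and 130), a ratio of 1.67. Less abundant members went both ways on few UMIs. HIST1H2BK was at 0.71 from 27 and 24 UMIs, HIST1H1E at 4.07 from 18 and 5, and HIST1H1C at 2.24 from 20 and 7. For HIST1H4C the groups overlapped over most of their range, and over the rank bins its mean was 78.3, 88.6, 72.3 and 46.8. The ratio passed 1.5 in 8 of 14 alternatives. Counts of this gene are uncertain because H4 genes share sequence, and these mRNAs mostly lack the poly(A) tail that the assay primes on. Of 6 replacement histones considered, H2AFV was lower, with 1.39 ± 0.78 against 2.13 ± 1.5 and a ratio of 0.65, and 0 were higher. Among all genes 8.25% were lower and 8.94% higher. H2AFZ was at 0.88 and H3F3A at 1.08.

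Of 7 chromatin proteins of the high mobility group 1 was higher and 1 lower, a share like that of all genes (8.94% and 8.25%). HMGB2 had 3.14 ± 2.20 against 1.74 ± 1.55, a ratio of 1.80, and HMGB3 1.05 ± 0.62 against 1.86 ± 1.30, a ratio of 0.57. Cyclins and kinases of G1 had 0 genes higher or lower of 2 considered, beside the same shares of all genes, and a summed ratio of 0.99. Of the p53 targets only CCNG1 (cyclin G1) was abundant enough, with 0.84 ± 0.57 against 1.60 ± 0.78. CDKN1A (p21) had 8 UMIs in the high cells and 10 in the low cells.

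Tubulins and their partners, the building stock of the spindle, had a sum of 57.3 ± 9.57 against 47.6 ± 10.1, a ratio of 1.2, and 18 of 19 high cells lay above the low median. TUBA1C carried the 1 call among 9 genes (11.1%), a share near the 8.94% of all genes that were higher. It had 5.77 ± 3.38 (0.92, 5.09 and 13.7) against 2.70 ± 1.15 (0.77, 2.61 and 4.57). TUBA1B had a ratio of 1.19, TUBB 1.28 and STMN1, the tubulin-sequestering stathmin, 1.38. Reads of tubulin genes can be shared between near-identical copies. The nuclear envelope genes TMPO (lamina-associated polypeptide) and LBR (lamin B receptor) had ratios of 2.08 and 1.90, and CSE1L, which returns importin alpha such as KPNA2 to the cytoplasm, 1.59. They were the 3 higher of 9 genes of nuclear transport and lamina, beside 8.94% of all genes, with 0 lower.

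The gene furthest apart was HES1, a transcriptional repressor downstream of Notch. It stood at 2.65 ± 1.80 in the high cells (0, 2.78 and 7.0) and 0.49 ± 0.64 in the low cells (0, 0 and 1.96), from 147 UMIs (95% exact Poisson interval 124 to 173) and 22 UMIs (13.8 to 33.3). A UMI was seen in 18 high and 9 low cells, 13 high cells lay above every low cell, and the ratio was 5.42. It did not grade with the ranking: its bin means were 2.65, 1.43, 2.65 and 0.49, and with 38 cells in each group the ratio was 1.30. Of the ID and HES repressors, 3 of 5 genes were higher (ID3, HES1 and HES4) and 0 lower, beside 8.94% higher and 8.25% lower among all genes, with a summed ratio of 1.64. That ratio was 1.43 in thinned cells and 1.38 without the low cells under 10483 UMIs. The sum of 1 low cell (38.1) lay above every high cell (highest 29.7).

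Immediate early genes, transcription factors induced within minutes of a growth or stress stimulus, were higher in 4 of 4 genes considered, beside 8.94% of all genes. FOS had 2.72 ± 2.42 in the high cells (0, 1.96 and 7.61) and 0.71 ± 0.86 in the low cells (0, 0.26 and 2.54), a ratio of 3.85. EGR1 had a ratio of 2.96, JUN 1.84 and MYC 1.79. EGR1 passed the filter of 2 UMIs per cell only with the high cells in its mean, so its place in the count is no support. Their list summed to 12.3 ± 5.90 against 6.15 ± 4.61, a ratio of 2.00. In thinned cells it was 1.68, and without the low cells under 10483 UMIs 1.74. Here too the order over the rank bins was broken, at 12.3, 6.38, 10.1 and 6.15, and with 38 cells in each group FOS was at 1.24 and JUN at 0.974.

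Mitochondrial mRNAs were a larger part of the RNA of the high cells. Their 13 genes summed to 432 ± 179 (138, 423 and 868) against 290 ± 141 (152, 255 and 664), a ratio of 1.49. MT-CO3 was at 1.83, MT-ND1 at 1.57, MT-CYB at 1.56 and MT-ND4 at 1.53, and the other 9 were below the threshold. These 4 higher and 0 lower of 13 stand beside 8.94% and 8.25% of all genes. Of 14 alternatives, MT-CYB reached 1.5 in 6 and MT-ND4 in 7. The groups overlapped over most of their range, and the rank bins ran 432, 322, 388 and 290. MT-TP, the gene of the mitochondrial proline tRNA, was the most abundant of the 20 genes with the highest ratio, at 29.6 ± 16.2 against 10.4 ± 11.4. The assay primes on poly(A) tails, so whether its UMIs came from the tRNA itself is uncertain. The part of the mitochondrial share in the differences of the nuclear genes was not tested. Without mitochondrial, ribosomal protein and the 10 most abundant genes in the totals, the mitotic lists outside the ranking had a ratio of 1.36.

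**Figure D5:**
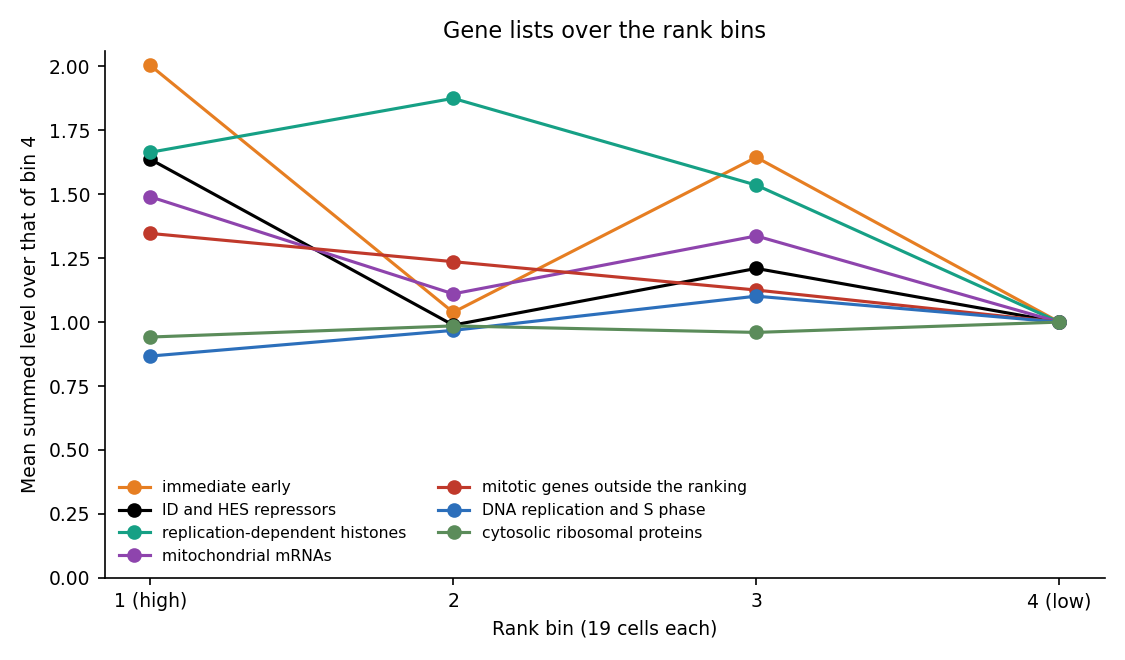
Summed level of 7 gene lists in the 4 rank bins (x axis, 19 cells each), divided by the value in the lowest bin (y axis). The mitotic genes outside the ranking fall at each step, from 1.35 times in the first bin, while immediate early genes, repressors and mitochondrial mRNAs dip in the second bin.

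PTBP1 and CALM2 were among the more abundant of the other genes with the highest ratios. PTBP1, a splicing repressor, had 3.01 ± 1.31 in the high cells (1.44, 2.56 and 6.00) and 1.19 ± 0.81 in the low cells (0, 1.18 and 2.73), and every high cell lay above the low median. CALM2, a calmodulin gene, had 5.22 ± 2.87 (0.46, 4.62 and 12.2) against 2.26 ± 1.51 (0, 2.00 and 6.54). Its ratio was 2.31, while CALM3 was at 0.88. Both PTBP1 and CALM2 fell over all rank bins and kept a ratio of at least 1.5 under all 14 alternatives, as did AURKB, CD164, OAT, ECI2 and ZNRD1.

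SAT1, an enzyme of polyamine breakdown, had a ratio of 3.90 and POLR2A, the largest subunit of RNA polymerase II, 3.02. SLC16A1, a lactate and pyruvate transporter, was at 2.60, OAT, ornithine aminotransferase, at 2.28, and UFM1, a ubiquitin-like modifier, at 2.26. The rest of the 20 were ABT1 (3.08), VIMP (2.82), CD164 (2.76), ZNRD1 (2.42), C14orf1 (2.38), ECI2 (2.37) and ATP6V1E1 (2.25). Each of these 12 genes had between 60 and 90 UMIs in the high cells, and in all but ZNRD1 and ATP6V1E1 at least 1 high cell had no UMI. SAT1, POLR2A, ABT1, SLC16A1, UFM1 and VIMP passed the filter of 2 UMIs per cell only with the high cells in the mean.

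Among the lower genes AHCY, which clears S-adenosylhomocysteine, was the clearest. It had 0.96 ± 0.80 in the high cells (0, 0.75 and 2.52) and 2.70 ± 1.59 in the low cells (0.72, 2.35 and 5.54), from 51 and 111 UMIs. Only 1 high cell lay above the low median, and the mean climbed at each bin, from 0.96 to 1.40, 1.87 and 2.70. EXOSC9, a subunit of the RNA exosome, was at 0.43 ± 0.49 against 1.47 ± 1.14, a ratio of 0.29. VTRNA1-3, a vault RNA gene, was at 1.56 ± 1.62 against 4.18 ± 4.04, a ratio of 0.37, with the same uncertainty from poly(A) priming as MT-TP. ZRANB2 and NSRP1, both splicing factors, had 0.42 and 0.48, TPM3, a tropomyosin, 0.45 and CYBA, a subunit of NADPH oxidase, 0.45. The other 7 genes of the 15 lowest were CTNNAL1, PVR, DTD1, PBDC1, SRP72, STRA13 and TCEAL4, with ratios from 0.34 to 0.47. EXOSC9, PVR and DTD1 passed the filter of 2 UMIs per cell only with the low cells in the mean.

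Cytosolic ribosomal protein genes showed 0 of 83 higher and 0 of 83 lower, beside 8.94% and 8.25% of all genes. Among genes with at least 5 UMIs per cell those shares were 4.37% and 4.68%. Their sum was 2872 ± 332 in the high cells and 3051 ± 319 in the low cells, a ratio of 0.94, and 1.14 on the spike-in scale.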

How the data were processed

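The deposited values are raw UMI counts, as whole numbers, for each gene in each cell. Cutadapt 1.2.1 and STAR 2.4.0a are listed in the submitters' processing notes beside the builds hg19 and GRCh37, without saying which did what. How UMIs were counted, on which annotation and with which filter on cells is not given in the sources used here. A row named GENE, which repeats column numbers and held 0.197% of the summed values, was left out, and 17513 gene rows and 80 spike-in rows remained. All 76 columns matched a cell by number, and 0 pairs of cells were identical. Totals per cell ran from 7305 to 43392 gene UMIs, so genes of few UMIs are limited by counting error.

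Cells were ranked and grouped as described, from the labels' single group. Levels are UMIs per 10000 gene UMIs, averaged over cells, and ratios are of these means, with intervals from exact Poisson (UMIs) and exact binomial (pooled ratios) limits at 95%. Python 3.11.15, numpy 2.4.6, pandas 2.3.3 and scipy 1.17.1 were used, and the code was tested on simulated data. Members and gene lists were chosen with earlier results of these data known. Named are the ranking genes, the 20 highest and 15 lowest ratios, members of the mitotic lists with at least 1 UMI per cell, and the 2 to 4 most abundant members of other lists; beyond these, genes counted as higher or lower in a list are named, chosen after their values were seen. Of the genes this rule takes, some are not reported here. Alternatives changed the scale, ranking, filter, threshold, group size, depth and shallow cells.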

Additional observations from a re-analysis of the deposited data

How the results depend on the processing

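No paired analysis was possible because all cells form 1 group. The counts of genes higher and lower (143 and 132) were 282 and 36 with spike-in UMIs as the scale, and 87 were lower on that scale relative to the median gene, a setting added after seeing the data. They were 386 and 338 at a mean of at least 1 UMI, 28 and 30 at 5 UMIs, 35 and 17 at a ratio of 2, 293 and 273 with 10 cells in each group, and 44 and 31 with 38 cells. Of the 143 higher genes, 37 stayed higher with 38 cells in each group and 63 with ranking genes weighted equally. The ratio of gene UMIs per cell (1.30) and of estimated molecules (1.19) was 2.09 and 1.79 when cells were ranked over spike-in UMIs, 1.91 and 1.47 with 10 cells, 1.2 and 1.12 with 38 cells, 1.2 and 1.12 with equal weights, 1.45 and 1.30 ranked by the 3 markers, 1.35 and 1.24 by the other 12, and 1.14 and 1.07 without shallow cells; without the highest cell of each group the first was 1.33. The mitotic genes outside the ranking (1.35) were at 1.58 on the spike-in scale, 1.22 with 38 cells and 1.21 by the 3 markers. The S phase genes (0.87) were at 0.99 on the spike-in scale, 0.88 without abundant genes in the totals, 0.90 ranked over spike-in UMIs, 0.79 with equal weights, 0.99 by the 3 markers and 0.88 in thinned cells. Single genes were followed under the alternatives if they were ranking genes, or genes of at least 1 UMI per cell that the naming rule took. Genes named only because they were counted as higher or lower in a list were not followed. Some followed genes with a ratio past 1.5 in either direction crossed 1. They were CENPM and JUN with 38 cells (0.916 and 0.974) and TPX2 by the 3 markers (0.817). The cause was not tested for any of these. Correcting for tags used more than once left both counts at 143 and 132. With 1 sample, no replicate could be left out, and depth leaves single genes of few UMIs uncertain.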

Other observations

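Several groups of housekeeping genes were measured in the same cells. Enzymes of glycolysis summed to 110 ± 25.7 UMIs per 10000 gene UMIs in the high and 133 ± 23.1 in the low cells (SD, n = 19 each), a ratio of 0.83. Of 10 genes considered, PGAM1 was lower and 0 were higher (8.25% and 8.94% among all genes), with ENO1 at 0.73 and TPI1 at 0.74. The median log2 ratio of the list was -0.34, against -0.03 over all genes. On the spike-in scale, which moves the median gene upward, the ratio was 1.01. Nuclear genes of oxidative phosphorylation had 0 higher and 3 lower of 64 (NDUFA10, NDUFA3 and NDUFB10), or 4.69% lower. Among all genes 8.94% were higher and 8.25% lower, and among genes with at least 5 UMIs per cell 4.37% and 4.68%. The list had a ratio of 0.95, while the mitochondrial mRNAs of the same complexes were at 1.49. On the spike-in scale the 2 values were 1.15 and 1.69.

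Of 20 chaperones considered, 2 were higher and 2 lower, beside 8.94% and 8.25% of all genes. HSPA8, the constitutive heat shock protein of the cytosol, had 10.1 ± 4.25 in the high cells (3.94, 10.2 and 17.7) and 5.95 ± 3.20 in the low cells (0.85, 5.82 and 11.8), a ratio of 1.70. HSPD1, HSP90AA1 and HSP90AB1 had 0.74, 0.75 and 1.00, and CCT6A and CCT7 of the folding chaperonin were lower. Of 28 proteasome genes considered, 1 was higher (PSMC6) and 1 lower (PSMA7). At 3.57% each, these shares were under those of all genes but near the 4.37% and 4.68% of genes with at least 5 UMIs per cell. PSMA7 was at 3.09 ± 1.54 against 5.14 ± 2.05, and 1 high cell lay above its low median. Among actin genes PFN1 (profilin) had a ratio of 0.72 and ACTB 0.81, with 0 high cells above the low median of ACTB (1.01 on the spike-in scale), while ACTG1 was at 1.00. Reads of actin genes can be shared between near-identical copies.

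KRT18, an epithelial keratin, had 28 UMIs in the high and 52 in the low cells, seen in 9 and 15 cells, a ratio of pooled shares of 0.41 (95% interval 0.25 to 0.67, counting error only). KRT8, a second keratin of the same list, had 10 UMIs in the high and 8 in the low cells. Its ratio of pooled shares was 0.96 (95% interval 0.34 to 2.80). That interval includes the 0.41 of KRT18, so KRT8 had too few UMIs to tell whether it shared the difference. The ratios of mean levels were 0.31 for KRT18 and 0.77 for KRT8. LRP2 had 0 UMIs in the high and 6 in the low cells.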
